A study of Mus musculus with 6 samples.

Results

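The genes described here are 29 genes of cholesterol synthesis and of its control by sterols, read on arrays of peritoneal cavity (PC) B1a cells. They were chosen by name, and each was represented by its brightest non-control probe over all arrays. All 29 were among the 18252 genes tested, and the representing probe of every one was well above background on all 6 arrays. The files name 39 probes for them. B1a cells are self-renewing, innate-like B cells of the body cavities that make natural antibody, and here they were sorted by flow cytometry as CD11b+CD5+ B cells from 7-week-old female C57Bl/6 mice. The 3 control samples came from p40-/-CD25+/- mice and the 3 knockout samples from p40-/-CD25-/- mice. CD25 is the alpha chain of the IL-2 receptor. Both genotypes lack p40, the subunit shared by IL-12 and IL-23, so a p40-sufficient animal is in neither group and the comparison is of 2 against 1 deleted CD25 alleles on that shared background. The deletions are in the germ line and so in every cell, not in B cells alone, and the knockout animals are a model of spontaneous autoimmune cholangitis. Each sample was pooled from at least 3 mice, and the labels do not say whether the samples of a genotype came from separate sorts. The p-values below thus measure only the spread between these samples, which may be technical.

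Cells build cholesterol from acetyl-CoA through mevalonate, farnesyl diphosphate, squalene and lanosterol. When membrane sterol is low, Scap carries the transcription factors SREBP-1 and SREBP-2 from the endoplasmic reticulum to the Golgi, where proteases release their active part, and genes of the whole route are transcribed. When sterol is high, Insig proteins hold Scap back, while oxysterols activate the liver X receptors, which turn on the efflux pumps Abca1 and Abcg1. Lymphocytes that prepare to divide are known to raise synthesis and to lower efflux.

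The start-site regions that the SREBPs and their partner factors would read are shown for 5 of these genes, with 200 bases before the annotated start, 5′ to 3′ in the direction of transcription (RefSeq, GRCm38.p6). Capitals mark the sterol regulatory element TCACNCCAC, the E-box CACGTG and the CCAAT box, each in either orientation. *Hmgcs1* is shown because it was the only one of the 24 genes searched with that sterol regulatory element, *Sc4mol* for its 3 CCAAT boxes, *Insig1* and *Sc5d* because they share an E-box and lay on opposite sides in the comparison, and *Srebf2* as the sterol-responsive factor itself.
Hmgcs1, chr13:119690151-119690350, plus strand: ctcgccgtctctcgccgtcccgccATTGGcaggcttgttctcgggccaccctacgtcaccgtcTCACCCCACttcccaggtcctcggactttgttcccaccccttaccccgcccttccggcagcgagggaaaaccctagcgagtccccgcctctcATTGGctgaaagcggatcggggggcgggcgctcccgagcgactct
Sc4mol (now Msmo1), chr8:64733579-64733778, minus strand: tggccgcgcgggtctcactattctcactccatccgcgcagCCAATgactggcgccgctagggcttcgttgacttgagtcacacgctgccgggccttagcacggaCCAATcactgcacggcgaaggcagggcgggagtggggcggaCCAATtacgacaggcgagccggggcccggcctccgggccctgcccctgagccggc
Insig1, chr5:28071212-28071411, plus strand: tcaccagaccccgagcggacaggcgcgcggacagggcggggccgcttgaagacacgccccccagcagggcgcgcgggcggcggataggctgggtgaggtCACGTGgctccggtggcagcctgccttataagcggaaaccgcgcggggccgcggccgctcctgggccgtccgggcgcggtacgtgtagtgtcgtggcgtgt
Sc5d, chr9:42264301-42264500, minus strand: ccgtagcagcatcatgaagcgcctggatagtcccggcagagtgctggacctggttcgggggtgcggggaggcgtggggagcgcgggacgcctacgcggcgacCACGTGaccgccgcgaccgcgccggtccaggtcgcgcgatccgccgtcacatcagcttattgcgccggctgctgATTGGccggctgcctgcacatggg
Srebf2, chr15:82147069-82147268, plus strand: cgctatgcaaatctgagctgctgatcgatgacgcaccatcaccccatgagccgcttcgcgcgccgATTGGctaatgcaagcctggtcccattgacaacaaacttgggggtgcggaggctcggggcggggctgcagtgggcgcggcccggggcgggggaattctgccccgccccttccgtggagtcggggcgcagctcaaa

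Windows from 250 bases before to 50 after an annotated start were held for 24 of the 29 genes, 33 windows in all. *Fdps*, *Fdft1*, *Sqle*, *Stard4* and *Abcg1* had no entry. The exact letters of the sterol regulatory element stood in 1 of these windows, that of *Hmgcs1* at position -137 from the start. They stood in 1.24% of all 32851 windows. An E-box stood in 7 windows of 6 genes (21.2% of the 33, against 7.15% of all windows): *Insig1* at -101, *Sc5d* at -98, *Hsd17b7* at -143, *Abca1* at -147, 1 of the 3 starts of *Dhcr7* and both starts of *Scap*. The *Scap* E-box and a GC box were at 28 and 38 from 1 start and at -40 and -30 from the other. These may be the same site in overlapping windows, counted for both. CCAAT boxes were found in 20 windows (60.6%, against 37.4%) of 19 genes, with 5 in *Mvk* and 4 each in *Hmgcs1* and *Nsdhl*. The GC box GGGCGG, which Sp1 reads, was in 25 windows (75.8%, against 35.7%) of 21 genes. The liver X receptor repeat DR4, written as 2 copies of AGGTCA spaced by 4 bases, was in none of the 33 windows and in 0.0152% of all. A string this rare would seldom be met in 33 windows, so its absence cannot show that these genes lack such sites. Both strands were searched, no motif contains another, and a match is only a stretch of letters. Only exact matches were counted, so a window without a match may hold a variant of the motif.

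**Figure D1:**
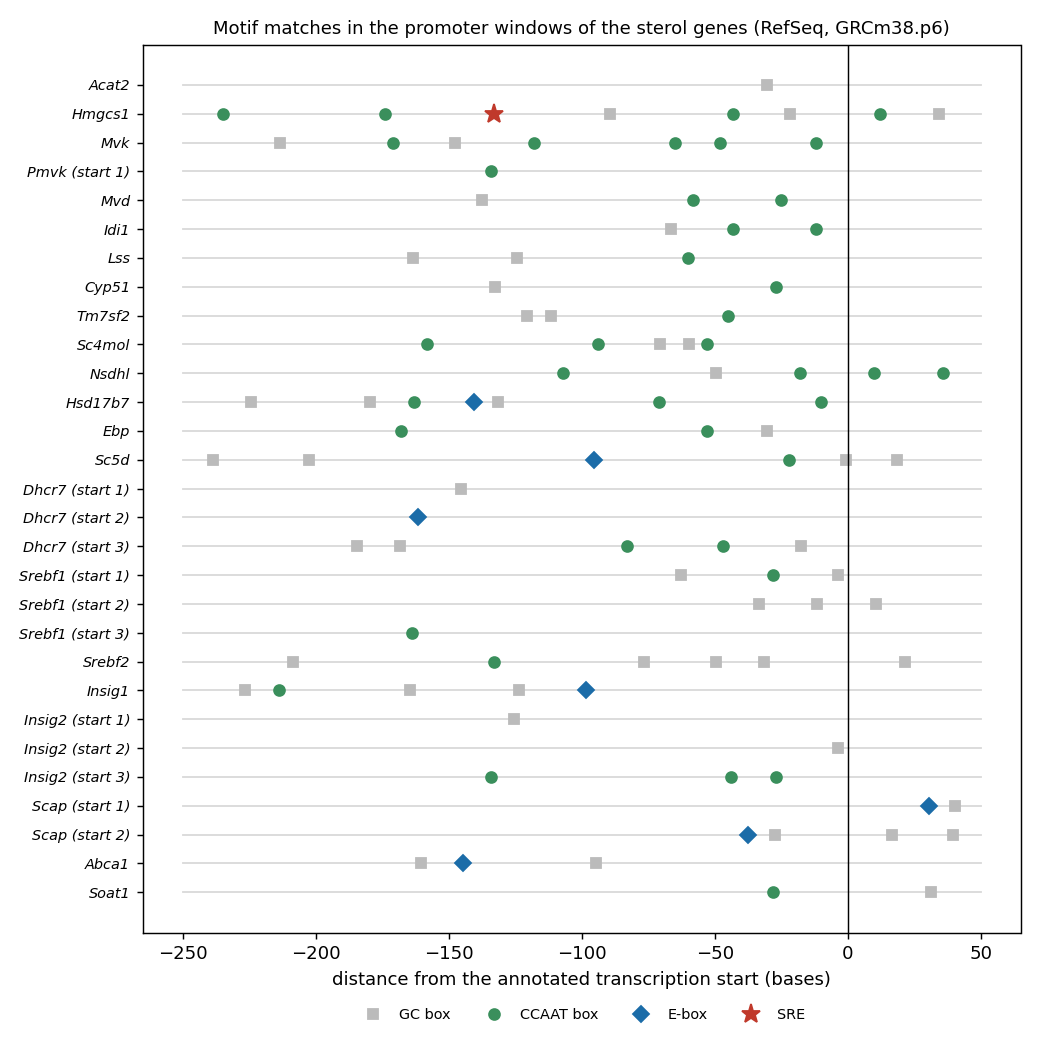
Positions of motif matches in the promoter windows of the sterol genes; the x axis is the distance in bases from the annotated transcription start, and each line is a window with at least 1 match. Only *Hmgcs1* holds an exact match to the sterol regulatory element TCACNCCAC (star, from -137), and variants were not searched. CCAAT boxes (circles) were found in 19 of the 24 genes with a window.

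The arrays carried Cy3-labelled cRNA, and each value below is the log2 of a spot's processed signal minus the 75th percentile of its array, so 0 is that percentile and a value is comparable between arrays but not between probes. The knockout arrays were dimmer: the 75th percentile of the signal was between 66.5 and 162 on them and between 252 and 272 on the control arrays. From 39.7% to 45.9% of spots were well above background on the knockout arrays and from 47.2% to 50.6% on the control arrays. The part of this in the results was not tested. Of the sort genes, *Cd5* was between 3.05 and 3.70 over the 6 arrays, and all 8 B cell markers were well above background on every array. *Itgam*, which encodes CD11b, was between 4.05 and 4.37 in controls and at 4.73, 5.86 and 4.40 in knockouts. Markers of other cells were present too. As sums of linear levels, the macrophage list lay between 37.7 and 90.2 on control and between 33.3 and 74.99 on knockout arrays, with 12 of its 17 genes well above background on all arrays, among them *Emr1*, *Csf1r* and *Timd4*, and *Cd163* on none. The 74.99 was on knockout 2, against 33.3 and 36.4 on knockouts 1 and 3. Of the 14 tested macrophage genes, 12 had a negative difference (all genes, 60.2%) and 2 a positive one, all with overlapping arrays. The extremes were *Lyz2* (-1.08, more than 2-fold lower with an unadjusted limma p of 0.028) and *Marco* (0.92). The sums were 9.10 to 15.0 against 13.9 to 17.4 for T cell markers, 0.541 to 3.55 against 0.654 to 0.861 for mast cell markers, and 68.6 to 75.6 against 46.6 to 59.5 for plasma cell markers, the control arrays given first. Of 7 tested T cell genes, 6 had a positive difference and *Cd3g* a negative one (-0.28), and *Thy1* and *Cd3e* were higher on every knockout array than on any control array. The antibody-joining chain gene *Igj* was lower. In sorted bulk samples, fewer cells of a type and less RNA per cell cannot be told apart, and the part of these cells in the sterol genes was not tested.

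In knockout B1a cells 22 of the 29 sterol genes lay below their control level and 7 above it, most of them by little. *Srebf1*, *Srebf2*, *Idi1*, *Sc4mol*, *Hmgcs1*, *Sc5d* and *Ebp* were 1.35 to 1.5-fold lower, while *Insig1*, the brake on SREBP transport, was 1.86-fold higher and *Acat2*, the entry enzyme, 1.67-fold higher. None of the 29 passed the limma adjusted p of 0.05 (0.0384% of all genes did) and none changed 2-fold with an unadjusted p of at most 0.05 (3.52% of all genes did). The smallest adjusted p was 0.096, for *Acat2*. By the unadjusted limma p (0.05 or less), 2 of the 29 were higher (6.9%, against 11.6% of all genes) and 7 lower (24.1%, against 13.6%). After quantile normalisation these counts were 3 and 4 (all genes, 9.85% and 10.3%), without *Hmgcs1*, *Ebp* and *Srebf2* among the lower, and they were 2 and 5 in the deposited table (all genes, 9.48% and 10.8%). The 3 knockout arrays lay wholly above the 3 control arrays for 2 of the 29 (6.9%, against 14.7% of all genes) and wholly below for 9 (31%, against 21.6%). That split was 4 above and 7 below both after quantile normalisation (all genes, 13.6% and 16.8%) and in the deposited table (13.1% and 17.6%). In both directions together that makes 11 of the 29, a share near the 36.3% of all genes, and the excess of lower genes over the background was not tested. Of the 29, 22 had a fitted difference below 0 (75.9%), as had 60.2% of all genes. The median log2 difference was -0.24 over the 29 and -0.12 over all genes tested, and 21 of the 29 lay below the latter.

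**Figure D2:**
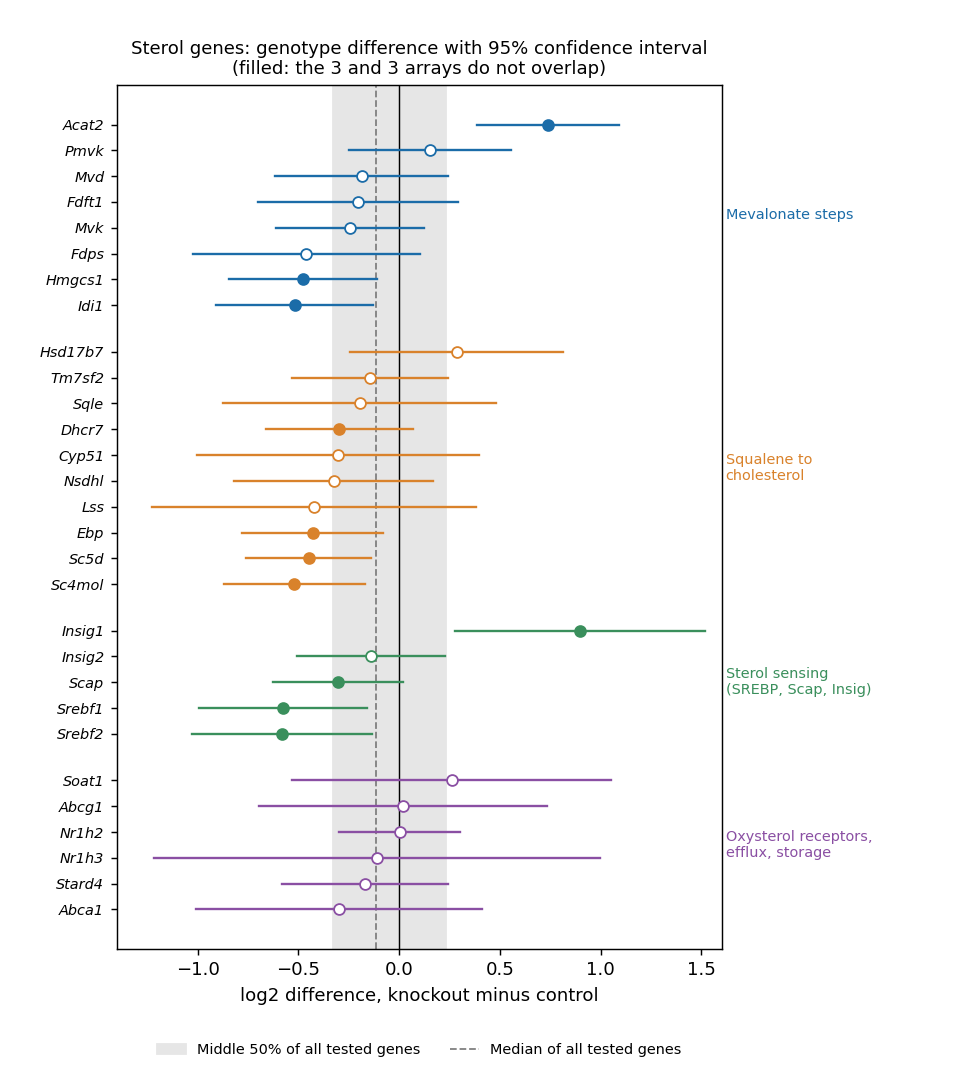
Log2 difference between knockout and control B1a cells (x axis, knockout minus control) for each of the 29 sterol genes, grouped by role, with 95% confidence intervals from limma (3 arrays a genotype). Filled points mark the 11 genes whose arrays did not overlap; the grey band is the middle 50% of all tested genes (-0.33 to 0.23) and the dashed line their median, -0.12.

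Of the 5 sterol-sensing genes, 1 lay above and 4 below their control level (all genes, 60.2% below), with a median difference of -0.30 (all genes, -0.12). *Insig1* encodes an anchor that keeps Scap in the endoplasmic reticulum when sterol is high. It was at -0.78, -1.43 and -0.39 on the control arrays of replicates 1, 2 and 3 and at -0.09, 0.11 and 0.08 on the knockout arrays. All knockout arrays were above all control arrays, and the control arrays were the more scattered (SD 0.53 against 0.11). Its log2 difference was 0.90 (standard error 0.26, 95% confidence interval 0.28 to 1.52, limma adjusted p = 0.13), the largest of the 29. The probe lies at 28404246 to 28404305 on chromosome 5 (mm9). The size hung on single control arrays: it was 0.61 with control 2 left out, and 1.14 with control 3 left out. Without control 3, *Insig1* passed the 2-fold thresholds, as did 3.83% of all genes. No other alternative had a member past them.

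*Insig2* encodes the related anchor that is made without regard to SREBP activity in most tissues. Its brighter probe gave 1.03, 1.00 and 0.85 in controls and 0.98, 0.61 and 0.87 in knockouts, which overlapped (difference -0.14, standard error 0.16, limma adjusted p = 0.56). A dimmer *Insig2* probe, filed under another transcript accession and placed at 123202133 to 123202192 on chromosome 1 (mm9), gave 0.22 (standard error 0.16), the other sign. The *Insig1* and *Insig2* probes are shown by their first 30 of 60 bases, since the *Insig2* probes differ in sign.
Insig1 probe: acagcatagaacacaacacgtgggacctaa
Insig2 probe, brighter: tatgtatacacaagcctaatggtagtagtg
Insig2 probe, dimmer: caatgtgccaaacgtgttactgacacagag

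*Srebf2* encodes SREBP-2, the main activator of cholesterol synthesis. It was at 2.55, 2.31 and 2.19 in controls and at 2.07, 1.52 and 1.73 in knockouts, without overlap. The difference was -0.58 (standard error 0.19, 95% confidence interval -1.03 to -0.13, limma adjusted p = 0.14), the lowest of the 29. Its second probe gave -0.46 (standard error 0.39) with overlapping arrays. *Srebf1* encodes SREBP-1, which acts more on fatty acid genes, and gave -1.35, -1.01 and -0.93 in controls and -1.86, -1.67 and -1.48 in knockouts. Here too the groups did not overlap, and the difference was -0.58 (standard error 0.18, limma adjusted p = 0.13). It was negative under all 5 scalings, from -0.72 to -0.07, and under the normexp background correction it was no longer below the median of all genes. *Scap*, the escort of both factors, was tightly grouped in controls at 4.03, 4.02 and 4.04 and lower in knockouts at 3.69, 3.62 and 3.88. Its difference was -0.30 (standard error 0.14, limma adjusted p = 0.21).

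Of the 8 enzymes from acetyl-CoA to squalene, 2 had a positive and 6 a negative difference (all genes, 60.2% negative), with a median of -0.22 (all genes, -0.12). *Acat2*, the cytosolic thiolase that joins acetyl-CoA units, was at -1.32, -1.47 and -1.68 in controls and at -0.81, -0.67 and -0.78 in knockouts. Every knockout array lay above every control array, by 0.74 on average (standard error 0.15, 95% confidence interval 0.39 to 1.09, limma adjusted p = 0.096). The next enzyme, HMG-CoA synthase, went the other way. *Hmgcs1*, shown above with its sterol regulatory element, gave 3.13, 2.89 and 2.75 in controls and 2.35, 2.44 and 2.56 in knockouts. The groups did not overlap, with a difference of -0.48 (standard error 0.16, limma adjusted p = 0.14). *Idi1*, the isomerase that makes the activated isoprene unit, was at 1.73, 1.77 and 1.39 in controls and at 0.94, 1.18 and 1.20 in knockouts. Its difference was -0.52 (standard error 0.17, limma adjusted p = 0.14), again without overlap. *Fdps*, which builds farnesyl diphosphate, was between 2.82 and 3.23 in controls and between 2.18 and 3.03 in knockouts, a difference of -0.46 (95% confidence interval -1.02 to 0.10), which ranged from -0.69 to -0.26 with an array left out. *Mvk* (-0.24), *Mvd* (-0.19), the squalene synthase gene *Fdft1* (-0.20) and *Pmvk* (0.15) had overlapping arrays, and their limma adjusted p lay at 0.33 or above. Of these, *Fdft1* and *Pmvk* changed sign under the normexp correction, to 0.02 and -0.16.

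**Figure D3:**
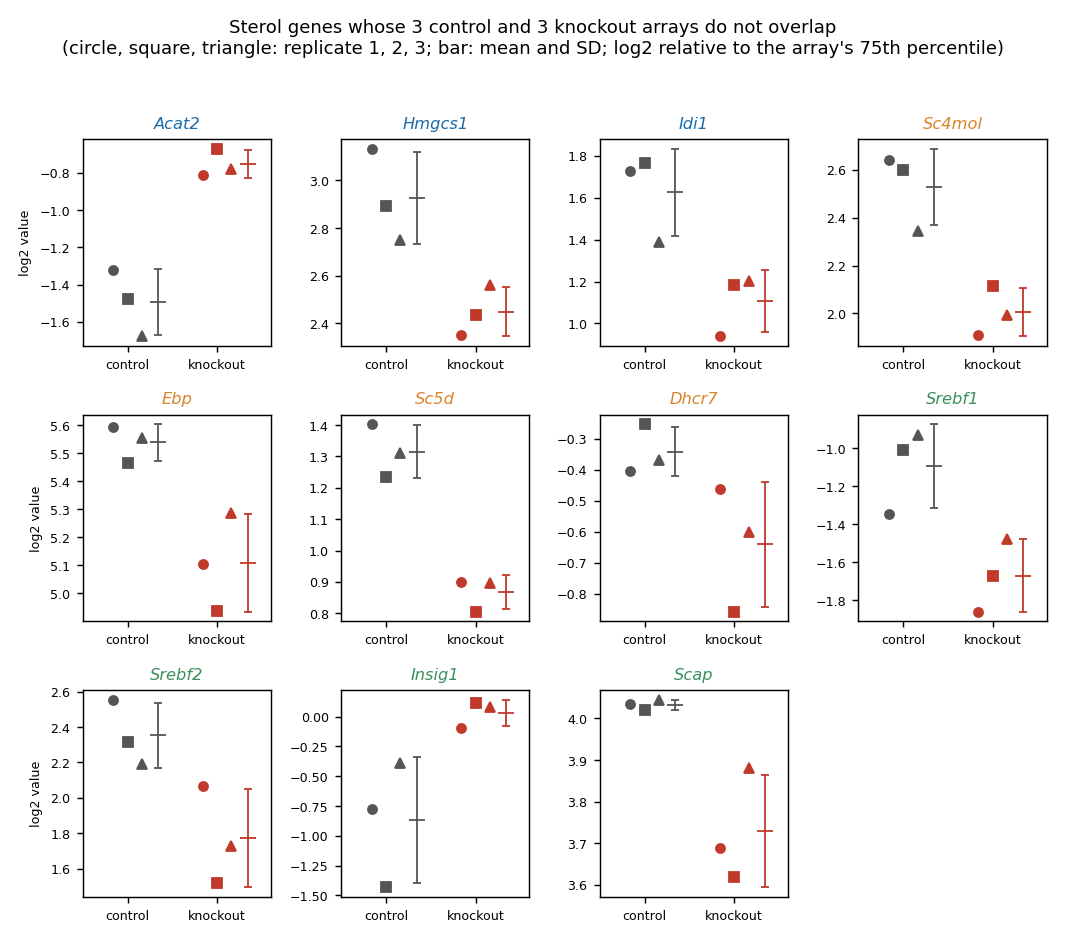
Log2 values (y axis, relative to the 75th percentile of each array; each panel has its own range) on the 3 control and 3 knockout arrays for the 11 sterol genes whose groups did not overlap under this scaling, with mean and SD (n = 3). *Acat2* and *Insig1* were higher in knockouts, and the other 9 genes were lower.

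Among the 10 genes from squalene to cholesterol, 9 had a negative difference (all genes, 60.2%) and the median was -0.31 (all genes, -0.12). *Sc4mol* encodes the methyl sterol oxidase that starts removal of the C4 methyl groups. It gave 2.64, 2.60 and 2.34 in controls and 1.91, 2.11 and 1.99 in knockouts. Without overlap, it differed by -0.52 (standard error 0.15, 95% confidence interval -0.87 to -0.17, limma adjusted p = 0.13). The isomerase gene *Ebp* was at 5.60, 5.47 and 5.55 in controls and at 5.10, 4.94 and 5.29 in knockouts. Its difference was -0.43 (standard error 0.15, limma adjusted p = 0.15). *Sc5d*, which encodes the desaturase that follows, was among the tightest of the 29, at 1.40, 1.23 and 1.31 in controls and at 0.90, 0.80 and 0.90 in knockouts. It differed by -0.45 (standard error 0.13, limma adjusted p = 0.13). *Dhcr7*, the reductase that completes cholesterol, was at -0.40, -0.25 and -0.37 in controls and at -0.46, -0.86 and -0.60 in knockouts. These did not overlap but nearly touched, and the difference of -0.30 had an interval that spans 0 (-0.66 to 0.07, limma adjusted p = 0.26).

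In the remaining 6 genes of this stretch the arrays overlapped. *Lss*, the lanosterol synthase gene, differed by -0.42 (95% confidence interval -1.22 to 0.38), and by -0.07 without control 2 and -0.72 without control 1. The lanosterol demethylase gene *Cyp51* differed by -0.30, with a knockout range of -0.67 to 0.53 and a control range of 0.14 to 0.41. *Sqle*, which encodes the epoxidase that opens the sterol branch, was between 0.82 and 1.89 in knockouts and between 1.42 and 1.89 in controls (-0.19). For both, 1 array carried the sign: without knockout 1, *Cyp51* was at 0.03 and *Sqle* at 0.10. *Nsdhl* (-0.33) and the sterol reductase gene *Tm7sf2* (-0.15) were also negative, though *Lss* and *Nsdhl* became positive under the normexp correction, at 0.08 and 0.05.

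*Hsd17b7*, the ketoreductase of C4 demethylation, had the one positive difference of the stretch and its probes did not agree. The brighter probe, at 171883182 to 171883241 on chromosome 1 (mm9), gave 0.29 (standard error 0.23). A nearly equally bright one, at 171880203 to 171880262 on the same chromosome, gave -0.34 (standard error 0.17), and the mean of both gave -0.03. Both carry the same transcript accession, and their first 30 bases show that they read separate parts of it.
Hsd17b7 probe, brighter: gaaaaattctatgaggtcttactggagctg
Hsd17b7 probe, dimmer: tcagtcctcaataaggtcttcgatagttat
Over all 9 genes with a second tested probe, the sign was shared in 6 and differed in 3 (*Hsd17b7*, *Insig2* and *Nsdhl*). The shared ones were *Srebf2*, *Mvk* (-0.22), *Pmvk* (0.20), *Stard4* (-0.16), *Tm7sf2* (-0.27) and *Nr1h3* (-0.35).

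With all 6 arrays, none of the 6 genes of oxysterol sensing, efflux and storage separated the genotypes, against 36.3% of all genes. Whether these 6 differ from that share was not tested. *Nr1h2* encodes liver X receptor beta, the form found in most cells, and was among the steadiest genes, at 4.88, 4.96 and 4.99 in controls and at 4.93, 4.94 and 4.97 in knockouts (difference 0.00, 95% confidence interval -0.30 to 0.30). *Nr1h3*, liver X receptor alpha, which is strong in macrophages and liver, was at -2.78, -2.87 and -1.38 in controls and at -2.97, -1.73 and -2.65 in knockouts. One array in each group stood high, control 3 and knockout 2, and the difference was -0.11 (95% confidence interval -1.22 to 1.00). The cholesterol pump gene *Abca1* was at 2.12, 1.24 and 1.55 in controls and at 1.76, 0.85 and 1.41 in knockouts (difference -0.30, limma adjusted p = 0.52, and between -0.51 and -0.05 with an array left out). *Abcg1*, whose product passes sterol to lipoprotein particles, was at 4.30, 3.45 and 3.43 in controls and at 4.12, 3.32 and 3.81 in knockouts (difference 0.02, limma adjusted p = 0.97). Both pumps were highest on the replicate 1 array of each genotype and lowest, among knockouts, on replicate 2. *Soat1*, which esterifies cholesterol for storage, was at -1.38, -1.61 and -0.29 in controls and at -0.67, -0.83 and -0.99 in knockouts (difference 0.26, 95% confidence interval -0.53 to 1.05). This value hung on the control arrays: it was 0.66 without control 3 (limma adjusted p = 0.34), where the groups no longer overlapped, and 0.002 without control 2. *Stard4*, a cytosolic sterol carrier, differed by -0.17 (standard error 0.18). The intervals of *Nr1h3*, *Abca1*, *Abcg1* and *Soat1* are wide enough to hold a 1.5-fold change in at least 1 direction, so these arrays do not show that the genotypes were alike.

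**Figure D4:**
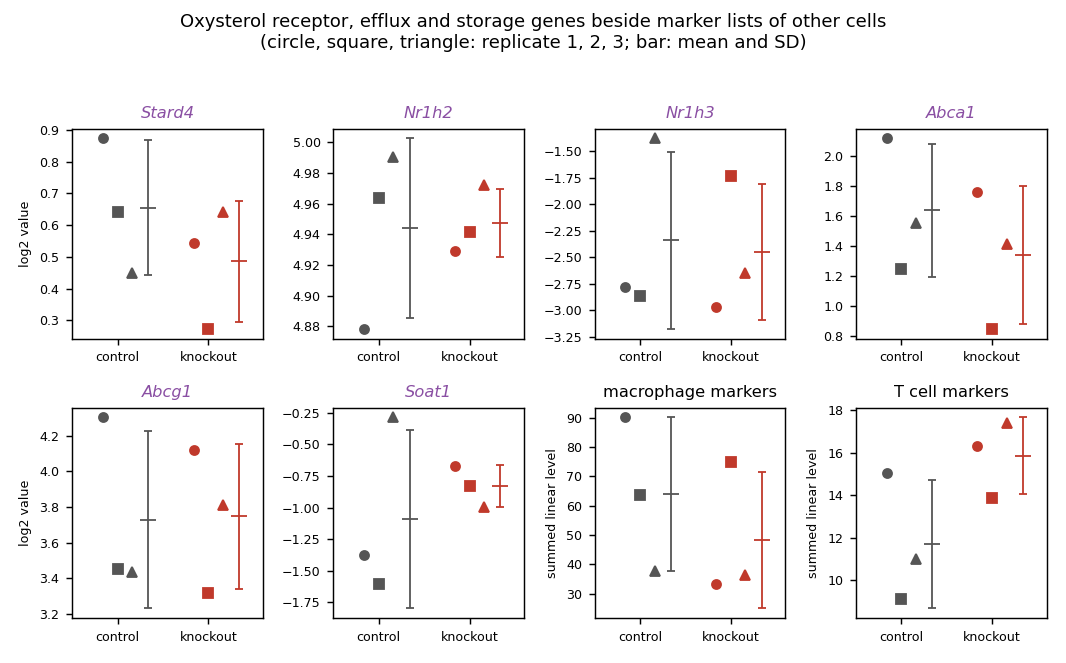
Log2 values on each array for the 6 oxysterol receptor, efflux and storage genes, beside the summed linear level of macrophage and T cell markers (y axes; each panel has its own range; mean and SD, n = 3). All 6 genes overlapped between genotypes, while 36.3% of all genes did not. The macrophage sum ran from 37.7 to 90.2 on control and from 33.3 to 74.99 on knockout arrays.

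The size of most differences depended on how the arrays were scaled. Under 5 scalings, *Insig1* ranged from 0.71 to 0.99 and *Acat2* from 0.63 to 0.83. *Srebf2* ranged from -0.75 to -0.43, *Idi1* from -0.60 to -0.41, *Sc4mol* from -0.70 to -0.36, *Hmgcs1* from -0.72 to -0.29, *Sc5d* from -0.54 to -0.35 and *Ebp* from -0.71 to -0.27. These 8 kept their sign under each scaling, also relative to the median of all genes. *Scap* ranged from -0.59 to -0.11 and *Dhcr7* from -0.37 to -0.10, and relative to that median *Dhcr7* was level with it under normexp. The number of the 29 below 0 was 22 under 4 of the scalings and 21 under normexp. Their median minus that of all genes was between -0.14 and -0.12. After normexp, 10 of the 29 passed the adjusted p, as did 35.3% of all genes.

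**Figure D5:**
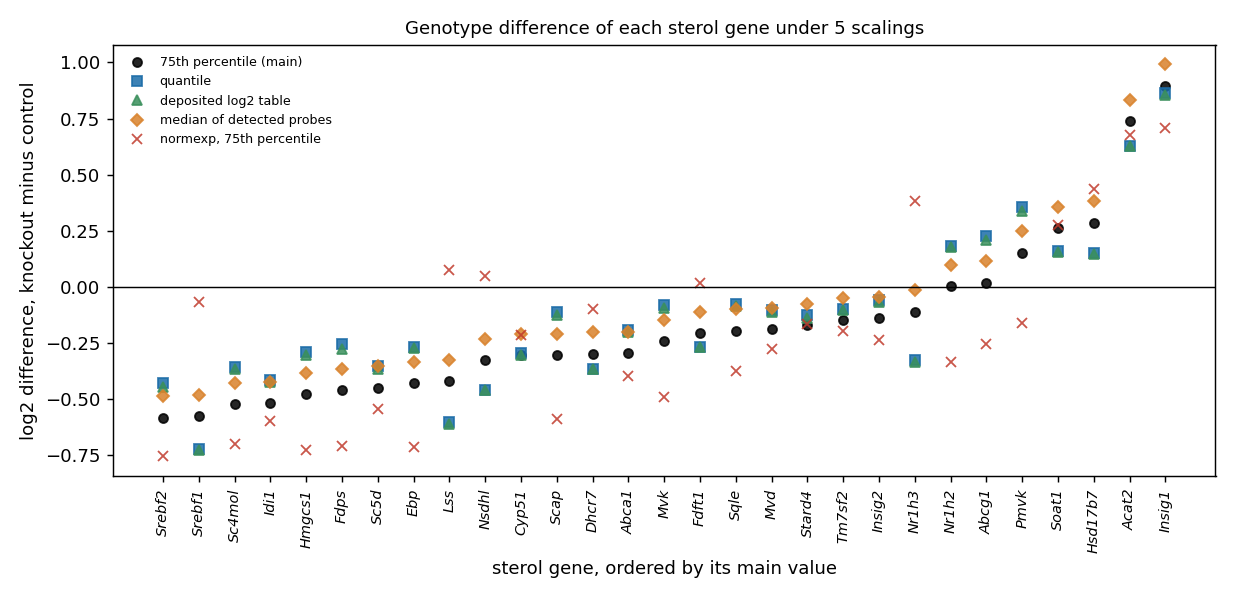
Log2 difference (y axis, knockout minus control) of each of the 29 sterol genes (x axis, ordered by the main value) under 5 scalings of the arrays. *Acat2* and *Insig1* stayed above 0 and *Srebf2*, *Idi1*, *Sc4mol* and *Hmgcs1* below 0 under all 5, while *Lss*, *Nsdhl*, *Fdft1*, *Pmvk* and the genes near 0 crossed it under normexp.

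Neighbouring pathways were read through lists of 66 further genes, 56 of them tested, of which 9 had a positive and 47 a negative difference (median -0.31). Over all genes tested, 60.2% were below 0 with a median of -0.12, 21.6% lay wholly lower and 14.7% wholly higher in knockouts, and the counts below stand against those shares; whether the lists differ from them was not tested. None passed the limma adjusted p of 0.05 or the 2-fold thresholds, and the smallest adjusted p was 0.12. The lists were chosen with earlier results of these arrays known. In the isoprenoid branch, which feeds ubiquinone, dolichol and protein prenylation, 13 of 14 genes were below 0 (all genes, 60.2%), 5 of them without overlap (all genes, 21.6%). The extremes were the polyprenyl diphosphate synthase subunits *Pdss2* (-0.55) and *Pdss1* (0.33). Among 11 genes that carry, cleave or degrade SREBP regulators, 10 were below 0, 6 without overlap, with *Erlin1*, which encodes an endoplasmic reticulum membrane protein, the lowest at -0.56. The exception was *Mbtps2*, the site-2 protease gene that finishes SREBP release. It was at -1.28, -1.45 and -1.30 in controls and at -0.46, -1.005 and -0.32 in knockouts (difference 0.75, standard error 0.20, limma adjusted p = 0.12), with no overlap. In fatty acid synthesis, the province of SREBP-1, 11 of 13 tested genes were below 0 and 7 did not overlap, between *Acss2* (-0.65) and *Gpam* (0.09). In sterol uptake and transport, 13 of 18 tested genes were below 0. Of these, 5 did not overlap, among them the lysosomal sterol carrier *Npc2* (-0.47), while the oxysterol-binding protein gene *Osbpl9* (0.59) was higher without overlap.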

How the data were processed

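Cy3-labelled cRNA of sorted B1a cells was hybridised to 6 one-colour Agilent arrays, which the authors read with Agilent Feature Extraction 10.7.1.1. The deposited spot intensity is the processed signal of that software, background-subtracted and not scaled between arrays. A separate deposited table holds the log2 values of the authors. It is quantile normalised (sorted columns differ by at most 0.000545, with a median of 3.16 in each) and correlates at 0.9986 or above with the log2 intensities of every array. For the main values, each array's 75th percentile over 59305 non-control spots was subtracted from log2 of the processed signal. Outlier spots were dropped before replicate spots were averaged. Testing needed a signal well above background on every array of at least 1 genotype and a value on at least 2 arrays of both, which 24751 of 55681 probes and 18252 genes met. The file headers name 1 slide and 1 scan for the 6 arrays. The genotype term was fitted in limma 3.58.1 (R 4.3.3; lmFit, eBayes) with no covariate, and p-values were adjusted over all genes by Benjamini-Hochberg. The limma step was run on simulated gene values with known differences and equal noise for all genes. The scaling, outlier and filter steps and the unequal brightness of the arrays were not part of that simulation. The number of arrays limits the precision.

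The genes and lists were chosen with earlier results of these data known. Values on every array are given for genes with an unadjusted p of at most 0.05 or without overlap, and for the sensing, receptor, efflux and storage genes. Other pathway lists are given by counts, with the largest increase and decrease. Probe coordinates are those of the array files (mm9), and promoter windows are those of RefSeq (GRCm38.p6), with *Sc4mol* looked up as Msmo1. The alternatives were quantile normalisation, a scaling on detected probes, normexp (offset 50), the deposited table, no filter or a filter on all 6 arrays, the mean of a gene's probes, outlier spots kept, the methods' t-test, a replicate block and leaving out arrays in turn. One listed gene is not reported here.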

Additional observations from a re-analysis of the deposited data

How the results depend on the processing

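The 16 alternatives gave 464 recomputed differences for the 29 genes, of which 20 changed sign, in 11 genes. Under normexp background correction the turned values were *Pmvk* -0.162, *Fdft1* 0.0193, *Lss* 0.0774, *Nsdhl* 0.0471, *Nr1h2* -0.335, *Nr1h3* 0.382 and *Abcg1* -0.253. With the mean of a gene's probes they were *Hsd17b7* -0.0258 and *Insig2* 0.0400. With each array left out in turn, *Nr1h2* ranged from -0.0296 to 0.0265, *Nr1h3* from -0.469 to 0.372, *Abcg1* from -0.167 to 0.306, *Sqle* from -0.434 to 0.104, *Cyp51* from -0.577 to 0.0262 and *Hsd17b7* from -0.259 to 0.515. The -0.259 of *Hsd17b7*, without knockout 2, came from its other probe, which was the brighter one on the arrays left. That sign change thus goes with a change of probe. None of these 11 genes passed a threshold in the main values. The median of the 29 was -0.193 after quantile normalisation, -0.202 in the deposited table, -0.148 after scaling on detected probes and between -0.303 and -0.188 with each array left out. The count past the adjusted p was 10 after normexp, where a fixed offset was added to arrays of unequal brightness before scaling, and 0 under every other alternative run. The count past 2-fold was 0 to 1 with each array left out (1 without control 3, where 3.83% of all genes passed) and 0 otherwise. Over the left-out arrays, 3.27% to 6.28% of all genes passed 2-fold. At an unadjusted limma p of 0.05 or less, the lower genes numbered 4 after quantile normalisation (10.3% of all genes), 5 in the deposited table (10.8%), 9 after normexp (27.8%) and 3 to 8 with an array left out (5.84% to 16.2%), against 7. The 3 were found without control 1 (9.19% of all genes) and 4 without knockout 1 (9.76%). Non-overlapping genes numbered 13 after normexp (3 above and 10 below, with 56.3% of all genes not overlapping) and 12 to 15 with an array left out, where fewer arrays have to separate and 40.6% to 52.5% of all genes did not overlap. Without a filter on dim probes the median of all genes was 0.40 over 36163 genes, and that of the 29 was -0.243 as before. Same-numbered arrays deviated together by a correlation of 0.186, 0.0564 and 0.0939 for numbers 1, 2 and 3, and 5 of the 6 arrays correlated best with their own number, which is a hint from the data and not from the design. With the replicate block, 0 of the 29 passed 2-fold and 0 the adjusted p, as without it. The causes of these changes were not tested.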
